A study of Homo sapiens with 12 samples.

Results

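FGF19 and the fibroblast growth factor receptor axis were followed as 10 genes of the 17687 named genes on the array. They are the ligand FGF19, the receptors FGFR1, FGFR2, FGFR3 and FGFR4, the coreceptor KLB, the carrier protein FGFBP1 and the ligands FGF2, FGF9 and FGF18. The genes were taken by symbol, and each was measured by 1 array feature. The set was selected on levels and changes in these arrays, and FGF19 was put first because of its fall in HCT 116 cells after BRG1 siRNA. Values of FGF19 are therefore a description without a test, and counts of genes that passed a test are over the other 9. These 9 belong to the same selected set, so their p-values and their counts against all genes are a description too.

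DLD1 and HCT 116 are established lines from human colorectal cancers, and total RNA from them was hybridised to 12 Affymetrix arrays. Each line had 3 arrays of cells given a control siRNA (siControl) and 3 arrays of cells given an siRNA against BRG1 (siBRG1). BRG1, encoded by SMARCA4, is an ATPase of the SWI/SNF complexes, which move nucleosomes. All 4 groups were given an siRNA, with no untransfected group among them, and each line is a single tumour-derived model whose own mutations are shared by its control and siBRG1 arrays.

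FGF ligands bind receptor tyrosine kinases of the FGFR family, with heparan sulfate chains on the cell surface as a cofactor. The receptors signal through the adaptor FRS2 to the RAS, ERK and PI3K pathways, and ERK raises its own inhibitors of the Sprouty and DUSP families. FGF19 differs from most ligands in binding heparan sulfate weakly and in circulating as a hormone. In the ileum bile acids raise it through the nuclear receptor FXR, and it then acts in the liver on FGFR4 together with beta-Klotho, the product of KLB, to lower bile acid synthesis.

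Levels are the deposited log2 values, so a difference of 1 is a factor of 2 on that scale, and levels of different genes were not set against each other. The siRNA target was lower in both lines: SMARCA4 changed by -3.80 in DLD1 (SE 0.21, limma adjusted p = 4.56e-07) and by -3.22 in HCT 116 (SE 0.21, limma adjusted p = 1.14e-06). Array deviations from the group means were alike except for HCT 116 siControl replicate 1, which lay farthest from its group (root-mean-square deviation 0.32, against 0.227 to 0.285 for the others). Pearson correlations were 0.989 to 0.995 within a group and 0.937 to 0.948 between the lines, across genes. Olfactory receptor genes, a family largely silent outside the nose, gave a reference for low values: the 95th percentile of 348 such genes was 4.97 in DLD1 siControl, 4.89 in DLD1 siBRG1, 5.18 in HCT 116 siControl and 5.10 in HCT 116 siBRG1. Detection calls are not among the values used, and a level in that range cannot be told from background. Of 11 epithelial markers measured, CDX1 and LGALS4 lay in that range in all 4 groups and VIL1 in both HCT 116 groups, while VIL1 in DLD1 (5.50 and 4.95) was above it. CDX2, an intestinal transcription factor, was at 12.95 and 13.07 in DLD1 and at 9.36 and 9.37 in HCT 116. EPCAM, KRT8 and KRT18 were at 14.43 or above in every group. Of the 11, 8 were lower and 0 higher in HCT 116 than in DLD1 control cells. Of all genes 14% were lower, and 27.6% differed in either direction. Markers of leukocytes, endothelium and fibroblasts were mostly in that range too (7 or 8 of 12 per group). Their summed level (log2 of the sum of linear values) ran from 9.30 to 9.43 in DLD1 siControl, 9.34 to 9.69 in DLD1 siBRG1, 9.10 to 9.46 in HCT 116 siControl and 9.26 to 9.72 in HCT 116 siBRG1. None of the 12 was at 0 on this log2 scale, where background has a value. CD14, VWF and COL1A2 lay above the olfactory receptor range in every group, COL1A2 highest of the 12 at 8.14 to 8.62. CD68, a macrophage and lysosome marker, was the 1 of 12 called higher in HCT 116 (5.76 to 7.05, limma adjusted p = 0.0036), against 2.82% of all genes. The part of these markers in the results below was not tested. The p-values measure the spread between these arrays, which the labels do not call separate cultures.

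The promoters of FGFR2 and FGFR3, the receptor genes that fell in HCT 116, are shown because their levels moved with that of FGF19 over the arrays. They are the 250 bases before the start of the gene, from RefSeq (GRCh38.p14), 5' to 3' on the strand of the gene. Of the 10 genes, 7 had an entry, and FGF19, FGFR1 and FGF9 did not. Capitals in the FGFR2 line mark CCAAT, which lies on the reverse strand 108 to 104 bases before the start and so reads ATTGG.
FGFR2, chr10:121598445-121598694, minus strand: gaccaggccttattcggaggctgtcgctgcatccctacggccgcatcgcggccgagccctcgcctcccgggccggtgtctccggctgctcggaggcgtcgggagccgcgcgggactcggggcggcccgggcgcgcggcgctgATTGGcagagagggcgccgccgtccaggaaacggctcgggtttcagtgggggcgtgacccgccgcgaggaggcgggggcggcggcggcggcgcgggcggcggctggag
FGFR3, chr4:1793043-1793292, plus strand: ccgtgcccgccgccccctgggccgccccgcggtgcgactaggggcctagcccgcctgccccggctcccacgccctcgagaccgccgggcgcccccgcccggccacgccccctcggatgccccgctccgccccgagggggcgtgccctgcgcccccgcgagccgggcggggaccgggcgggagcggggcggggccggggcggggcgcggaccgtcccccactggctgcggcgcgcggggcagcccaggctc
GC content was 78.4% with 42 CpG sites for FGFR2 and 86.8% with 40 CpG sites for FGFR3, against a median of 58.0% and 11 sites over 27305 promoters of the same length. A set of 6 motifs was searched on both strands. TATAAA was in 11.1% of all promoters, CCAAT in 33.0%, the E-box CACGTG in 6.49% and the AP-1 motif TGANTCA in 6.6%. The motif TGATGCA was in 2.22% of them and CTTTGA, a core of TCF sites, in 11.4%. No match in the 7 promoters overlapped another. FGFR3 held none of the 6 in this window, FGFBP1 held CCAAT 27 to 23 bases before the start, and KLB and FGF18 held CTTTGA.

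FGF19 was high in HCT 116 control cells and low in the other 3 groups. Its level was 10.50, 10.26 and 10.14 in the 3 HCT 116 siControl arrays and 6.67, 5.97 and 5.51 in the siBRG1 arrays. In DLD1 it was 4.28, 5.10 and 4.32 in siControl and 5.19, 4.87 and 4.995 in siBRG1. All HCT 116 siControl arrays lay above all siBRG1 arrays, and the DLD1 groups overlapped. Fewer cells with FGF19 RNA and less FGF19 RNA per cell cannot be told apart in bulk RNA. The means were 10.30 ± 0.18 and 6.05 ± 0.58 in HCT 116 and 4.57 ± 0.46 and 5.02 ± 0.16 in DLD1 (SD, n = 3). In HCT 116 the change was -4.25, a fall by a factor of 19.0, and it stayed between -4.56 and -3.98 with any single array left out. The change in DLD1 was 0.45, in a line where the siControl mean already lay in the olfactory receptor range. After the fall the HCT 116 mean was above that range but below the array median on all 3 arrays. Between the control lines the measured difference was 5.73 (HCT 116 higher), against a DLD1 level that cannot be told from background. The order of the group means was HCT 116 siControl, HCT 116 siBRG1, DLD1 siBRG1 and DLD1 siControl, and only the DLD1 groups overlapped as neighbours.

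**Figure D1:**
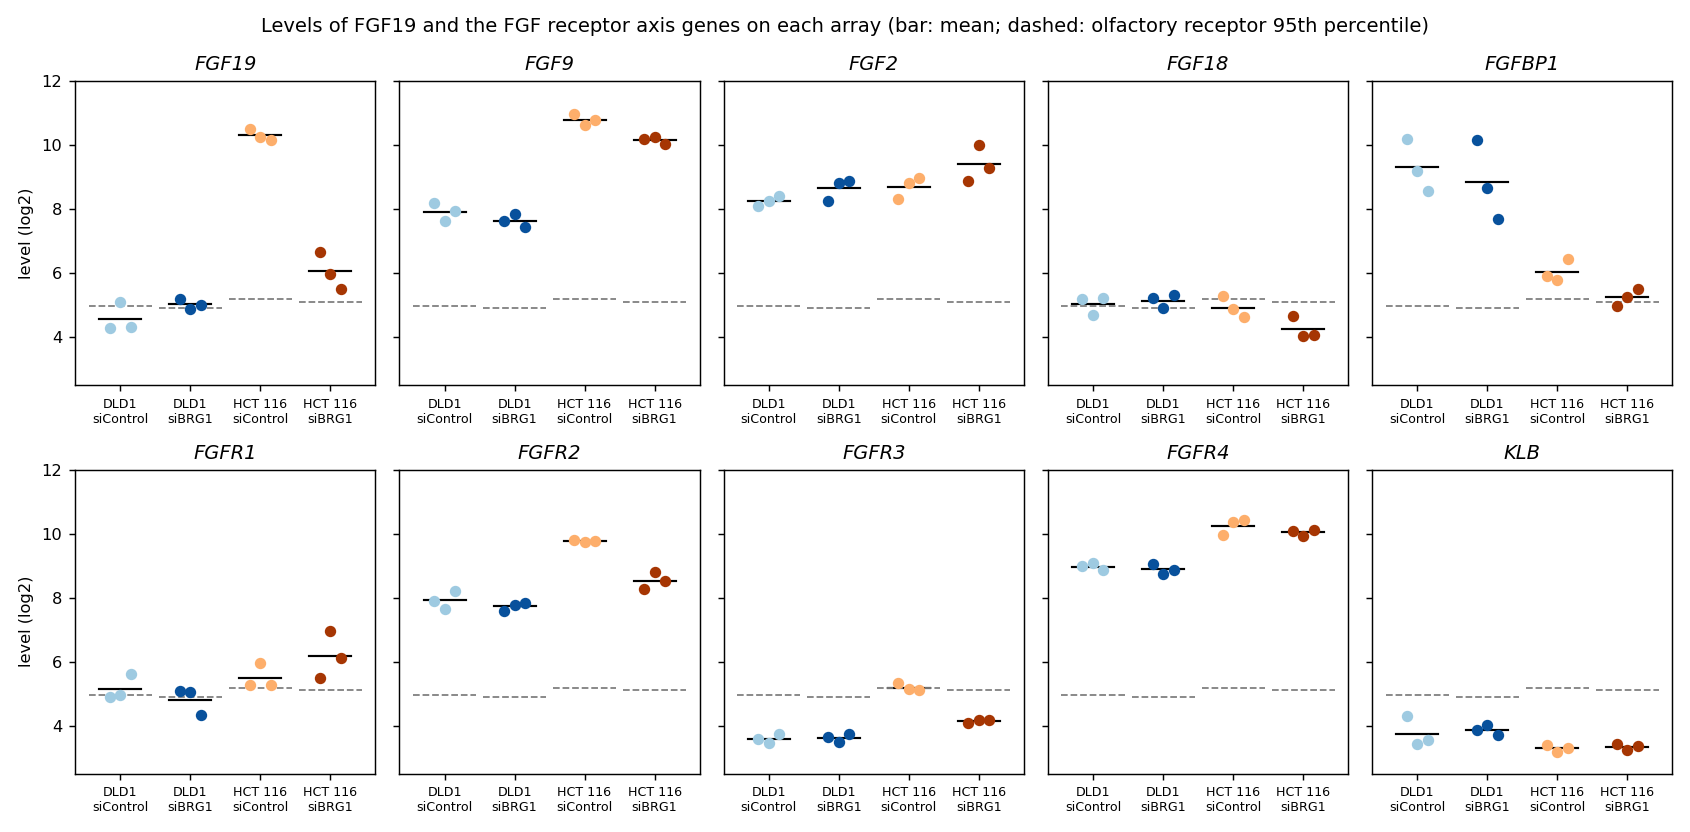
Level of each of the 10 genes on each of the 12 arrays (y axis, log2) by group, with points for arrays, a bar for the group mean of 3 and a dashed line for the olfactory receptor 95th percentile of the group. FGF19 is at 10.14 to 10.50 in HCT 116 siControl and at or below 6.67 in every other array, while KLB stays under the dashed line in all 4 groups by its mean.

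FGFR2 and FGFR3, 2 of the 4 receptor genes, fell in HCT 116 and showed no call in DLD1. FGFR2 encodes a receptor with splice forms that bind different ligands, and FGFR3 a related receptor. FGFR2 was 9.80, 9.76 and 9.79 in HCT 116 siControl and 8.29, 8.80 and 8.51 in siBRG1. In DLD1 it was 7.89, 7.66 and 8.21 against 7.59, 7.78 and 7.83. The HCT 116 groups did not overlap, while the DLD1 groups did. The HCT 116 change was -1.25 (SE 0.19, 95% confidence interval -1.65 to -0.84, limma adjusted p = 0.00138), and the factor was 2.37.

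FGFR3 was 5.32, 5.15 and 5.11 in HCT 116 siControl and 4.10, 4.18 and 4.17 in siBRG1. In DLD1 it was 3.59, 3.45 and 3.74 against 3.63, 3.48 and 3.74. The HCT 116 change was -1.05 (SE 0.16, 95% confidence interval -1.39 to -0.70, limma adjusted p = 0.00154). The level was low throughout: only the HCT 116 siControl mean, 5.19, lay just above the olfactory receptor limit, so the siBRG1 mean of 4.15 cannot be told from background. The FGFR2 and FGFR3 calls in HCT 116 were kept with any 1 array left out, HCT 116 siControl replicate 1 included. In DLD1 the changes were -0.19 for FGFR2 and 0.02 for FGFR3 (limma adjusted p = 0.837 and 0.987). The difference of the 2 lines' changes was -1.06 for FGFR2 and -1.07 for FGFR3 and did not pass the test (limma adjusted p = 0.142 and 0.0684), so a difference in response between the lines is not shown for either. The average of both lines passed for both, at -0.72 and -0.51 (limma adjusted p = 0.00521 and 0.0137).

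FGFR4, the receptor that FGF19 uses in the liver, was high in HCT 116 and did not pass the test in either line. Its level was 9.96, 10.37 and 10.42 in HCT 116 siControl and 10.10, 9.93 and 10.11 in siBRG1. DLD1 arrays read 8.99, 9.07 and 8.86 against 9.07, 8.75 and 8.86. The groups of each line overlapped and those of different lines did not. The HCT 116 change was -0.21 (95% confidence interval -0.59 to 0.17, limma adjusted p = 0.589) and the DLD1 change -0.08 (limma adjusted p = 0.951).

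FGFR1 was 5.27, 5.96 and 5.26 in HCT 116 siControl and 5.51, 6.96 and 6.10 in siBRG1. The DLD1 arrays gave 4.89, 4.96 and 5.61 against 5.09, 5.04 and 4.32. The groups overlapped in both lines. The HCT 116 change was 0.69 with a wide interval (-0.04 to 1.42, limma adjusted p = 0.275), and the DLD1 change was -0.33 (limma adjusted p = 0.836). The DLD1 siBRG1 mean of FGFR1, 4.82, lay in the olfactory receptor range, and the siControl mean, 5.15, just above it.

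KLB, the coreceptor that FGF19 needs, was in the olfactory receptor range in all 4 groups. Its level was 3.41, 3.19 and 3.31 in HCT 116 siControl, 3.43, 3.26 and 3.35 in siBRG1, 4.30, 3.41 and 3.54 in DLD1 siControl and 3.87, 4.01 and 3.70 in DLD1 siBRG1. The siControl and siBRG1 groups overlapped in each line. HCT 116 arrays lay below DLD1 arrays of the same treatment without overlap. In siControl this was by a narrow margin (highest 3.412 against lowest 3.414). A fall could not have been read at this level. The changes were 0.04 in HCT 116 and 0.11 in DLD1 (limma adjusted p = 0.952 and 0.938).

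The other ligands moved less than FGF19. FGF9, a secreted paracrine ligand, was 10.97, 10.62 and 10.79 in HCT 116 siControl and 10.20, 10.25 and 10.03 in siBRG1, and the groups did not overlap. The change was -0.63 (SE 0.19, limma adjusted p = 0.06), which misses the threshold over all genes and passed it when genes below the lower quartile or the median of mean level were left out (0.049 and 0.031). DLD1 values were 8.18, 7.64 and 7.93 against 7.61, 7.85 and 7.44, and those groups overlapped. The average of both lines was -0.46 (limma adjusted p = 0.0481), a call that was lost in 10 of 12 fits that left out 1 array (adjusted p = 0.0619 to 0.131 where lost). It was kept only without DLD1 siControl replicate 2 or DLD1 siBRG1 replicate 2.

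FGF18, a ligand known as a Wnt target in colorectal tumours, was 5.28, 4.86 and 4.61 in HCT 116 siControl and 4.66, 4.04 and 4.07 in siBRG1, which overlap. The change was -0.66 (limma adjusted p = 0.109), and both HCT 116 means lay in the olfactory receptor range. DLD1 arrays held 5.19, 4.70 and 5.22 against 5.21, 4.92 and 5.30, which overlap. FGF2, a heparin-binding ligand that leaves cells without a signal peptide, was 8.31, 8.82 and 8.98 in HCT 116 siControl and 8.89, 10.02 and 9.28 in siBRG1. It was 8.09, 8.25 and 8.41 in DLD1 siControl and 8.26, 8.81 and 8.87 in siBRG1. The FGF2 groups overlapped in both lines. Same-numbered siBRG1 arrays were higher in all 6 comparisons, though in HCT 116 it is not settled that the numbers pair the arrays. The changes were 0.69 in HCT 116 and 0.40 in DLD1, and neither passed the test (limma adjusted p = 0.159 and 0.698).

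FGFBP1, which releases FGF ligands from the extracellular matrix, was 5.90, 5.79 and 6.45 in HCT 116 siControl and 4.96, 5.26 and 5.50 in siBRG1, and the groups did not overlap. It was 10.19, 9.20 and 8.55 in DLD1 siControl and 10.15, 8.67 and 7.68 in siBRG1, and the DLD1 groups overlapped. Between same-numbered arrays siBRG1 minus siControl was -0.04, -0.53 and -0.87 in DLD1 and -0.94, -0.53 and -0.95 in HCT 116. The HCT 116 siBRG1 mean, 5.24, lay just above the olfactory receptor limit of 5.10, and the lowest array, 4.96, lay below that limit. The HCT 116 change was -0.81 (95% confidence interval -1.86 to 0.25, limma adjusted p = 0.403) and the DLD1 change -0.48 (limma adjusted p = 0.837). The fit shares 1 estimate of spread over the 4 groups. For FGFBP1 the SD was 0.825 and 1.243 in DLD1 against 0.356 and 0.271 in HCT 116, so the interval is not that of HCT 116 alone. Of 24 alternatives, 1 called it in HCT 116, the limma fit that also allowed for replicate number (adjusted p = 0.0228).

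No filter on low values was applied, so all 9 other genes were tested. Of them, 2 were lower and none higher in HCT 116 at a limma adjusted p under 0.05, against 4.13% of all genes lower, 2.82% higher and 6.95% in either direction; 5 had an unadjusted p under 0.05, against 20.4% of all genes. The median change was -0.63 against -0.02 over all genes. The groups did not overlap for 4 of the 9 (FGFR2, FGFR3, FGFBP1 and FGF9), against 24.9% of all genes. In DLD1, limma called 0 of the 9, against 0.198% of all genes, with 0 at an unadjusted p under 0.05, against 10.5%, and 0 whose groups did not overlap, against 15.5% of all genes. FGFR2, FGFR3 and FGF9 were lower in the average, against 4.68% of all genes lower and 8.68% in either direction. The difference between the lines called 0 of 9 by limma, against 0.334%, with 3 at an unadjusted p under 0.05, against 8.99%. The shares over all genes moved with single arrays. In HCT 116 the share called was 3.49% to 3.82% without siControl replicate 2 or 3 or siBRG1 replicate 2 or 3. In DLD1 it was 0.0396% to 0.113% without DLD1 siControl replicate 1 or 3, DLD1 siBRG1 replicate 3, or replicate 2 or 3 of either HCT 116 group, and 0.373% without DLD1 siBRG1 replicate 1. The average gave 4.51% to 5.73% without replicate 3 of either DLD1 group, HCT 116 siControl replicate 2 or HCT 116 siBRG1 replicate 2 or 3. The difference gave 0.147% to 0.215% without DLD1 siControl replicate 1 or 3, DLD1 siBRG1 replicate 3, HCT 116 siControl replicate 2 or 3 or HCT 116 siBRG1 replicate 3.

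**Figure D2:**
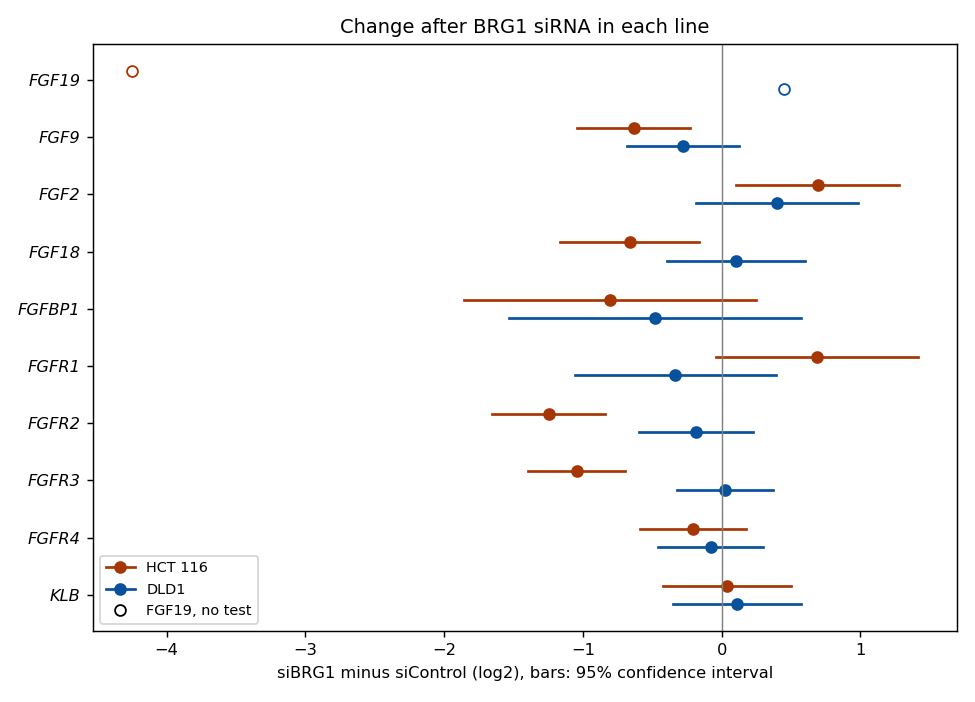
Change after BRG1 siRNA (x axis, siBRG1 minus siControl, log2) of each gene in HCT 116 and DLD1, with bars for the 95% confidence interval of the limma fit and an open circle for FGF19, which was not tested. FGFR2 and FGFR3 lie left of 0 in HCT 116 with intervals that end at -0.84 and -0.70, and their DLD1 intervals cross 0.

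Control cells of the 2 lines differed in 5 of the 9 genes. FGF9 was 2.88 higher in HCT 116 (limma adjusted p = 1.57e-08), FGFR2 1.86 higher (2.2e-06), FGFR3 1.60 higher (1.96e-06) and FGFR4 1.28 higher (5.28e-05); the DLD1 level of FGFR3 lay in the olfactory receptor range. FGFBP1 was lower in HCT 116 (difference -3.27, limma adjusted p = 0.000111). The remaining 4 did not pass, at 0.45 for FGF2, 0.35 for FGFR1, -0.44 for KLB and -0.12 for FGF18 (adjusted p = 0.269, 0.525, 0.154 and 0.776). In all, 5 of 9 were called, 4 higher and 1 lower, against 27.6% of all genes, of which 13.6% were higher and 14% lower. Arrays of the control groups did not overlap for 6 of the 9, against 40% of all genes.

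By order of means, FGFR2, FGFR3 and FGF9 ran from HCT 116 siControl through HCT 116 siBRG1 to the DLD1 groups, as FGF19 did, with overlap only between the 2 DLD1 groups. FGFR4 had the HCT 116 groups above the DLD1 groups. FGFBP1 ran the other way, with the DLD1 groups above HCT 116 siControl and HCT 116 siBRG1. Neighbouring groups overlapped throughout for FGF2, FGFR1, KLB and FGF18.

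The wider pathway was read from gene lists drawn up with earlier results of these arrays known, so their counts are a description. In DLD1 limma called 0 genes in each of the 8 lists, against 0.198% of all genes. In HCT 116 limma called 6.95% of all genes, and 20.4% had an unadjusted p under 0.05. Among the other FGF ligands, 14 of 14 were measured, 9 lay in the olfactory receptor range in all 4 groups, and none was called in HCT 116 (1 at an unadjusted p under 0.05); FGF5 moved by 0.51 and FGF16 by 0.32 (limma adjusted p = 0.116 and 0.566). Of the intracellular FGF homologues, which do not signal through FGFRs, 3 of 4 were measured and FGF11 was called at 0.72 (limma adjusted p = 0.0444), a call lost in 10 of 12 fits without 1 array (0.05 to 0.134). It was kept only without DLD1 siControl replicate 2 or 3, and the FGF11 level was 3.89 rising to 4.61, both in the low range.

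SDC1 is a heparan sulfate proteoglycan that presents FGFs to receptors. Of 16 other receptors and binding proteins it was the 1 called in HCT 116, against 4.13% of all genes lower and 6.95% in either direction. SDC1 fell there from 10.08 ± 0.13 to 8.37 ± 0.03 (SD, n = 3). The change was -1.71 (SE 0.29, limma adjusted p = 0.00296). In DLD1 its change was -0.83 (limma adjusted p = 0.292), and -1.24 (adjusted p = 0.0388) without DLD1 siBRG1 replicate 1. None of 12 heparan sulfate enzymes was called in HCT 116, against 6.95% of all genes. By limma 4 had an unadjusted p under 0.05, against 20.4% of all genes. Their median change was -0.37 against -0.02 over all genes. HS6ST1 moved by -0.78 and GLCE by -0.58 (limma adjusted p = 0.0962 and 0.102). Between control lines 8 of these 12 differed, 7 higher in HCT 116, led by the 6-O-sulfotransferase HS6ST2 at 6.31 and HS3ST1 at 3.67 (limma adjusted p = 3.39e-09 and 1.27e-07), against 27.6% of all genes. The DLD1 siControl level of HS6ST2, 3.21, lay in the olfactory receptor range, so the size of its difference is set against background, while HS3ST1 was at 6.80 there. The count was 5 without DLD1 siControl replicate 2 or HCT 116 siControl replicate 3.

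Of the receptor adaptors and effectors, 16 of 24 were measured. In HCT 116 limma called 1 lower and 1 higher, against 4.13% of all genes lower, 2.82% higher and 6.95% in either direction. PLCG1, a phospholipase that FGFRs bind, fell there by 0.98 (limma adjusted p = 0.0158). STAT3, a transcription factor, rose by 0.72 (limma adjusted p = 0.0218). Both calls depended on single arrays: PLCG1 was lost without HCT 116 siBRG1 replicate 2 or 3 (0.0566 to 0.0584), and STAT3 without HCT 116 siControl replicate 2 or 3 or siBRG1 replicate 1 or 2 (0.0651 to 0.0943). Without HCT 116 siBRG1 replicate 2, limma called 0 of the 16. Between the control lines 8 of the 16 differed, 5 higher and 3 lower in HCT 116, against 27.6% of all genes. This count was 6 to 9 with 1 array left out. GAB1, an adaptor downstream of FRS2, was lower in HCT 116 than in DLD1 control cells (difference -3.79, limma adjusted p = 1.99e-08).

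The feedback and target genes moved in both directions in HCT 116. All 18 were measured, and 3 rose and 2 fell, against 6.95% of all genes called; the median was 0.27. EGR1, an immediate early transcription factor, rose by 1.97 from 11.72 ± 0.03 to 13.69 ± 0.11 (SD, n = 3; limma adjusted p = 4.4e-05). DUSP4, a nuclear ERK phosphatase, rose by 1.09 (limma adjusted p = 0.00309) and SPRY1, a Sprouty inhibitor, by 0.91 (0.0217). SPRY1 ranked after the 4 genes that the naming rule took and was named so that all 5 are given. DUSP6, the cytoplasmic ERK phosphatase, fell by 1.14 (limma adjusted p = 0.00328). The ETS factor ETV5 fell by 1.46 (limma adjusted p = 0.0203). ETV5 lost its call without HCT 116 siControl replicate 1, 2 or 3 or siBRG1 replicate 2 or 3 (0.0536 to 0.0798). The list's count was 3 without HCT 116 siControl replicate 2 or 3 or siBRG1 replicate 2 or 3. In DLD1 the largest changes were 0.93 for SPRY3 and -0.83 for FOSL1 (limma adjusted p = 0.102 and 0.207). The EGR1 change differed between the lines by 1.68 (limma adjusted p = 0.0131). Between the control lines 13 of 18 differed, 6 higher and 7 lower in HCT 116, against 27.6% of all genes; DUSP4 was 5.16 higher, SPRY4 3.31 higher and SPRY1 lower (difference -2.73).

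**Figure D3:**
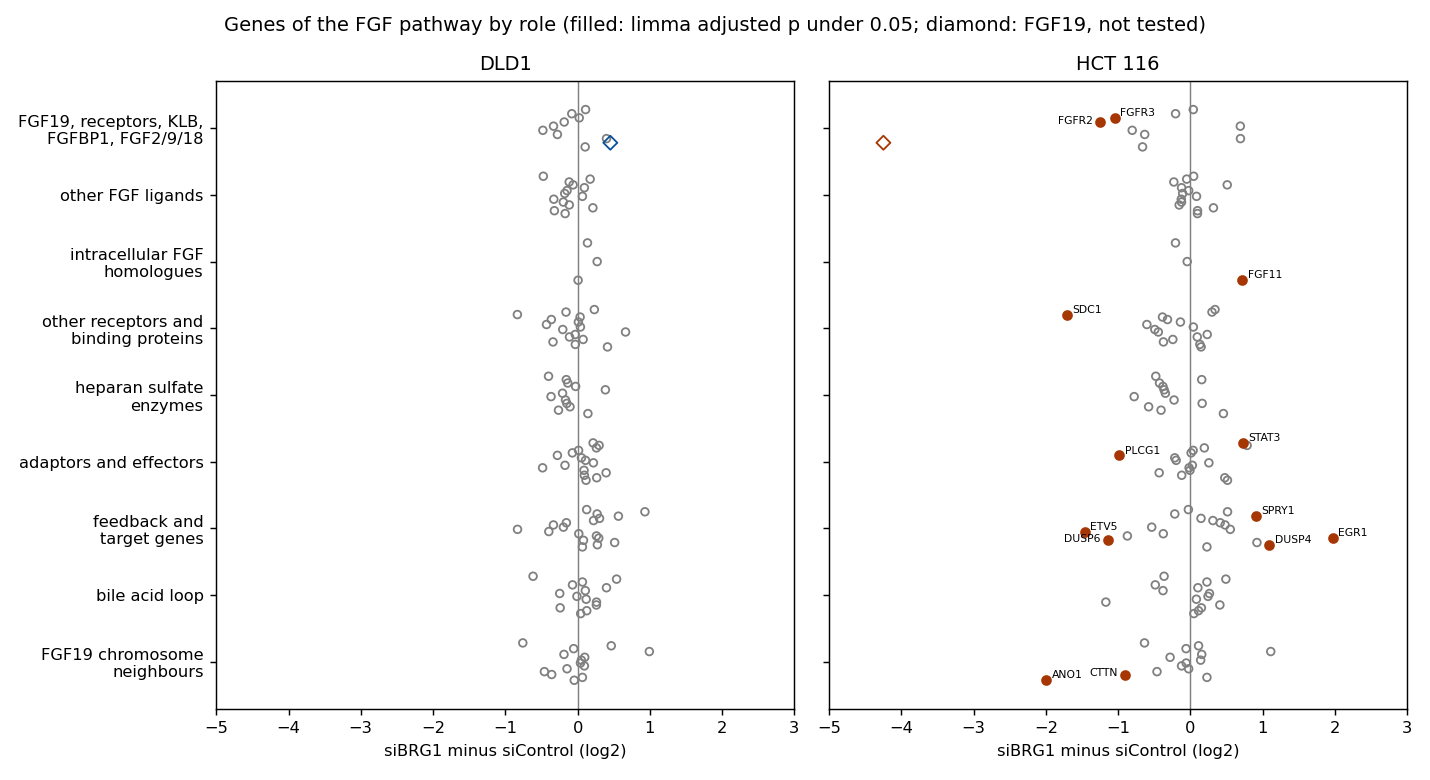
Change after BRG1 siRNA (x axis, log2) of every measured gene by role (rows) in DLD1 and HCT 116; filled points passed limma at an adjusted p under 0.05, open points did not, and the diamond is FGF19. DLD1 has no filled point, and in HCT 116 the feedback and target genes lie on both sides of 0, from ETV5 at -1.46 to EGR1 at 1.97.

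In the bile acid loop that controls FGF19 in the ileum, 14 of 18 genes were measured. Of these, 9 lay in the olfactory receptor range in all 4 groups. In HCT 116 limma called 0, against 6.95% of all genes, with 2 at an unadjusted p under 0.05, against 20.4%. FABP6, the ileal bile acid binding protein, was 5.97 ± 0.66 in HCT 116 siControl and 4.80 ± 0.19 in siBRG1 (SD, n = 3; change -1.17, limma adjusted p = 0.0518), and it was called without DLD1 siControl replicate 1, DLD1 siBRG1 replicate 1 or 2, or HCT 116 siControl replicate 1. The siBRG1 mean and both DLD1 means of FABP6 lay in the olfactory receptor range, so its differences are set against background. Between control lines FABP6 was 2.35 higher in HCT 116 and NR5A2, a nuclear receptor, 1.16 higher (limma adjusted p = 7.46e-05 and 0.00583), and VDR, which can sense bile acids, was lower (difference -2.04, 4.27e-06).

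FGF19 lies beside other genes in a region often amplified in tumours, with ANO1, FGF3, FGF4 and CCND1 near it. Of the 10 nearest protein-coding genes on each side, 18 of 20 were measured, and in HCT 116 2 were lower and none higher, against 4.13% of all genes lower and 6.95% in either direction. In DLD1 limma called 0, against 0.198%. The lower genes were ANO1, a calcium-activated chloride channel, and CTTN, an actin-binding protein. ANO1 was 10.58, 11.28 and 10.83 in HCT 116 siControl and 8.97, 9.29 and 8.43 in siBRG1. The change was -2.00 in the fit (SE 0.32, limma adjusted p = 0.00201). In DLD1 it was 4.49, 5.15 and 5.79 against 5.07, 4.72 and 5.50. Its HCT 116 groups did not overlap and its DLD1 groups did, and between control lines it was 5.75 higher in HCT 116 (limma adjusted p = 2.19e-09). The DLD1 means of ANO1, 5.14 and 5.10, lay just above the olfactory receptor limit. CTTN changed by -0.90 (limma adjusted p = 0.00931). LTO1 and FGF4, the genes next to FGF19, did not pass the test, at 0.14 and -0.12 (limma adjusted p = 0.819 and 0.796). FGF3 and CCND1, farther out, did not pass either, at -0.03 and 0.23 (limma adjusted p = 0.964 and 0.532). By gene order CCND1 is as far from FGF19 as ANO1 is, on the other side. The FGF3 means lay in the olfactory receptor range in all 4 groups, so a fall could not have been read. Those of FGF4 lay just above it.

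**Figure D4:**
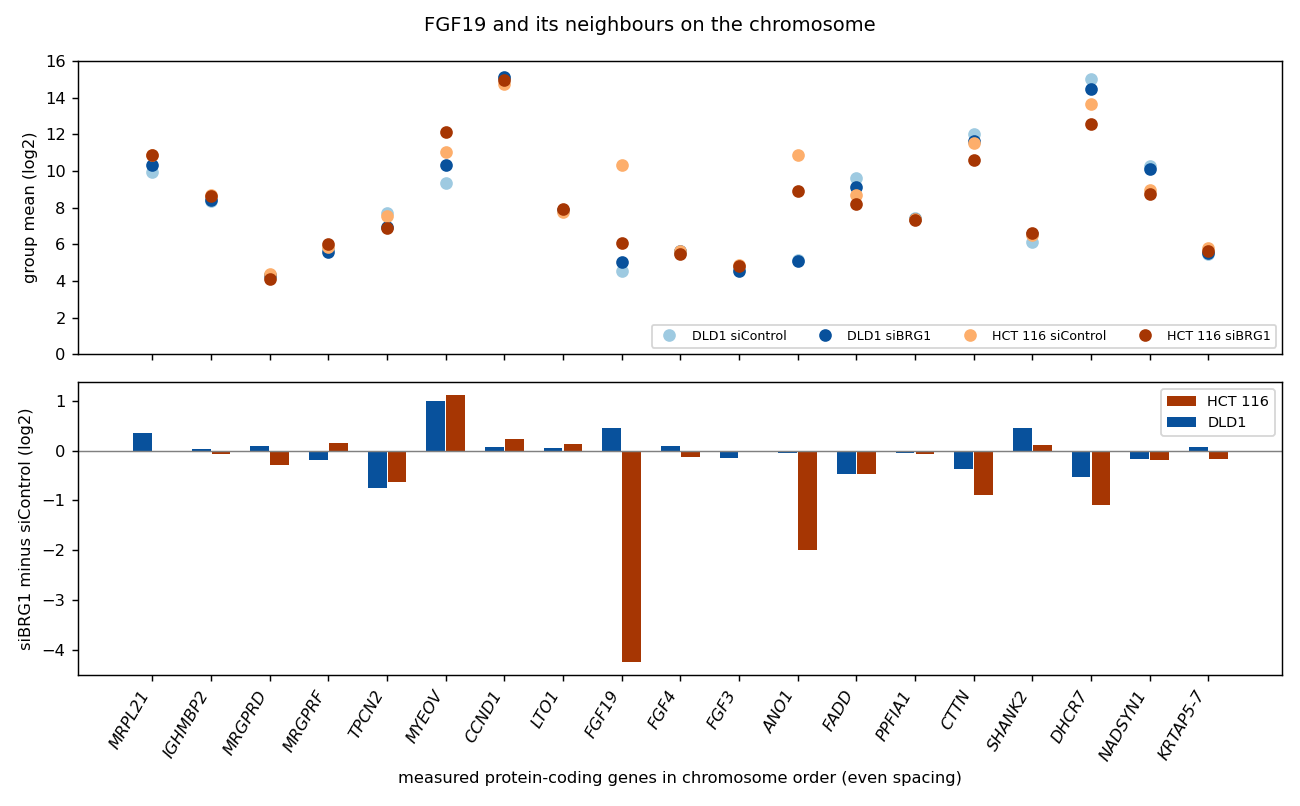
Group means (upper plot, log2) and changes after BRG1 siRNA (lower plot, log2) of the measured protein-coding genes around FGF19 in chromosome order at even spacing. In HCT 116 siControl FGF19 and ANO1 stand at 10.30 and 10.90, 5.73 and 5.75 above DLD1 siControl, while FGF4 and FGF3, which lie between them, differ by 0.07 and 0.20. FGF3 is in the olfactory receptor range in all 4 groups, and FGF4, at 5.49 to 5.63, is just above it.

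The genes most like FGF19 over the 12 arrays were ranked by Pearson correlation among 4099 genes that had a high group mean and differed between groups; as the 4 groups set most of the spread, r is a description with no p. The 5 highest were CXXC1 (0.957), RABL2B (0.952), SLFN5 (0.951), PRF1 (0.942) and SESTD1 (0.937), and the 5 lowest were MID2 (-0.964), NCEH1 (-0.943), MKLN1 (-0.942), BLOC1S4 (-0.939) and LGALSL (-0.936). In all, 57 genes reached an r of 0.9 or more. Of the axis genes FGFR3 correlated at 0.967 but was too low to be ranked, FGFR2 at 0.932 (rank 11), FGF9 at 0.82, FGFR4 at 0.791 and KLB and FGFBP1 at -0.593 and -0.592. FGF18 stood at -0.046, FGFR1 at 0.194 and FGF2 at 0.0993. ANO1 ranked 74.

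**Figure D5:**
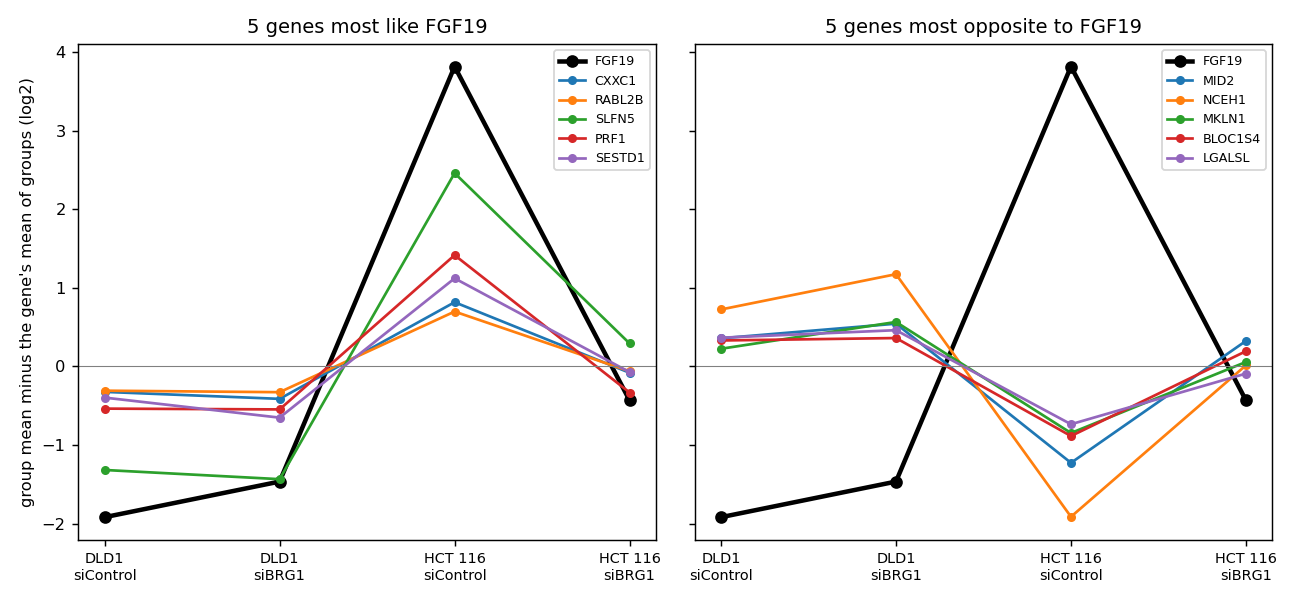
Group means of FGF19 and of the 5 genes most like and the 5 most opposite to it, minus each gene's mean over the 4 groups (y axis, log2). FGF19 covers a wider range than the others, from 10.30 in HCT 116 siControl to 4.57 in DLD1 siControl.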

How the data were processed

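The deposited values are log2 levels. The authors made them by RMA, and Affymetrix Power Tools is also named in the submitters' processing notes. No version or build is stated in the sources used here. RMA corrects background, equalises arrays and summarises the probes of a feature. Between 94 and 112 values per array exceed 16, so a step beyond plain RMA is not named. Samples were grouped by title. In 4 HCT 116 samples the source name differs from the title in the number within the cell line name or the siRNA name. The characteristics of these samples match the title. Features were named through the platform annotation: 17709 of 21448 had 1 symbol, 0 several and 3739 none, which gave 17687 genes (20 with several features, of which the one with the highest mean was used).

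limma 3.58.1 in R 4.3.3 fitted 4 group means over 12 arrays (lmFit, eBayes, 8 residual and 6.66 prior degrees of freedom), with two-sided p-values and Benjamini-Hochberg adjustment over all genes at 0.05. The fit was tested on simulated data. The number of arrays limits the precision. Members and lists were chosen with earlier results of these data known. Genes named beside the members were SMARCA4, per list up to 4 called genes with the largest changes in a line (up to 2 where none was called), and the 5 genes most and 5 least like FGF19. Same-numbered DLD1 arrays deviated together (r = 0.485, 0.459 and 0.291), so their numbers pair them, from the data and not the labels; those of HCT 116 did not all (0.299, 0.149 and 0.028). No scan date or slide was used.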

Additional observations from a re-analysis of the deposited data

Results flagged for a closer look

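The measured changes of FGF19 and EGR1 after BRG1 siRNA differed between the lines. For FGF19 the HCT 116 change minus the DLD1 change was -4.70, with every HCT 116 siBRG1 array below every siControl array and overlapping groups in DLD1. It was not tested, since the gene was chosen for this fall. The DLD1 siControl mean, 4.57, lay in the olfactory receptor range, so a fall in DLD1 could not have been read. For EGR1 the same difference was 1.68 (limma adjusted p = 0.0131), and the call was lost without DLD1 siControl replicate 3 (0.0516). It was called in 20 of 23 alternative settings, with adjusted p up to 0.341.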

How the results depend on the processing

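Each alternative changed 1 choice of the fit. Of the 9 genes besides FGF19, 2 were called in HCT 116; this was 5 with the replicate block (FGFR2, FGFR3, FGFBP1, FGF2 and FGF18), 0 when a minimum change of 1.5-fold was tested, and 2 to 3 with 1 array left out. In HCT 116 same-numbered arrays did not all deviate together (r = 0.299, 0.149 and 0.028), so whether the numbers pair them is not settled. The average called 3, which was 5 with the replicate block (FGFBP1 and FGF2 added, FGFBP1 at adjusted p = 0.0131, and 0.0228 in HCT 116), 0 at 1.5-fold, 1 at an adjusted p under 0.01 and 2 to 3 with 1 array left out. The difference between lines called 0 by limma (3 at an unadjusted p under 0.05), 1 with array weights (FGFR3, adjusted p = 0.0434), and 0 with any array left out. In DLD1 limma called 0 under every alternative run, with the replicate block too, and the control lines called 5, or 4 where low genes were filtered out. The block changed no other member call in DLD1. FGFR2 stayed called in HCT 116 in 23 of 24 alternatives and FGFR3 in 21 of 22, lost only at 1.5-fold; filters on mean level left FGFR3 out of the test and added FGF9 in HCT 116. Some changes without a call turned sign. With arrays centred on their medians FGFR3 in DLD1 was -0.035, and the differences of FGFR4 and KLB 0.005 and 0.06. With 1 array left out, FGF13 ran from -0.017 to 0.268 in DLD1; FGF18 from -0.064 to 0.217 in DLD1 and -0.299 to 0.034 between control lines; FGF2 in the difference from -0.018 to 0.544; FGFBP1 from -1.139 to 0.096 in DLD1 and -0.901 to 0.333 in the difference; FGFR1 in the average from -0.014 to 0.349; FGFR3 in DLD1 from -0.046 to 0.096; KLB from -0.057 to 0.384 in DLD1, -0.018 to 0.092 in HCT 116, -0.009 to 0.211 in the average and -0.345 to 0.096 in the difference. The cause was not tested. Over all genes the HCT 116 count was 1230, 2123 with the replicate block, 2035 with array weights and 88 at 1.5-fold; excluding both HCT 116 arrays numbered 1, chosen after seeing the data, gave 991, and leaving out 1 HCT 116 array gave 618 to 675 (siControl replicate 2 or 3, siBRG1 replicate 2 or 3), 1065 or 1205. Signal over background limits KLB, FGFR3 and FGF18, in HCT 116 siBRG1 also FGFBP1, and in DLD1 also FGF19 and FGFR1.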
